A study of Arabidopsis thaliana with 12 samples.

Results

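Plants held for 150 min in an exposure chamber with 1 to 2 ppm of gaseous formaldehyde (low) were compared with plants that never entered the chamber (outside). The comparison rests on 6 of the 12 arrays of the series, chosen by their labels, with 3 plants in each group and a single array per plant. The leaves were from 7-week-old Arabidopsis thaliana of the Columbia ecotype. All plants, those outside included, were of the AB genotype, which carries rmpA and rmpB of Mycobacterium gastri MB19. These genes encode a hexulose phosphate synthase and a hexuloisomerase that act in the chloroplast and turn formaldehyde into sugar phosphate. Neither the promoter of the transgenes nor the number of lines is stated in the labels, and plants without the transgenes were not analysed here. Before the treatment every plant had spent 72 h at 24 °C under constant light. The outside plants stayed in those conditions at under 0.08 ppm formaldehyde. The low plants sat in a 10 L chamber ventilated at 200 ml/min, at 50 to 60% humidity. The other groups of the series, 3 plants each, were in the same kind of chamber with air (under 0.04 ppm) or with 14 to 16 ppm formaldehyde (high). They enter here through the shared estimate of the spread and as values beside those of low and outside.

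Low and outside differ in both the chamber and the formaldehyde, so this comparison cannot tell the effects of handling, enclosure, humidity and gas apart. The labels give no separate runs within the low group. The run and its condition therefore cannot be told apart either, and every p-value measures only the spread between plants. The labels do not settle whether the outside plants were sampled at the start or the end of the 150 min.

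Formaldehyde is a reactive one-carbon compound that leaves take up through stomata. Plant cells bind it to glutathione, oxidise it to formate and then to carbon dioxide, or pass its carbon into folate-bound one-carbon units. Leaves also answer touch, cuts, changes of humidity and microbial molecules within minutes with a burst of early transcripts for zinc finger, WRKY and AP2/ERF transcription factors, ubiquitin ligases and calcium sensors, many of which decay again within hours. Expansins, proteins that loosen the cell wall, and the sugar efflux carriers of the SWEET family are known to follow growth and the water and sugar status of the leaf.

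The values are log2 intensities as the authors deposited them, made with GCRMA, and a change is a difference of log2 group means. A probe set was called at a limma adjusted p under 0.05, adjusted over the 22746 probe sets that are not array controls. Both groups were tight. Across all probe sets the outside plants correlated with each other at r = 0.994 to 0.995 and the low plants at 0.995 to 0.997, against 0.981 to 0.985 between an outside and a low plant and 0.982 to 0.992 among air plants. Probe sets are not independent replicates, so these r describe the arrays only. The median SD between plants was 0.194 outside and 0.164 in low. The leaf mesophyll markers RCA, LHCB4.1 and LHCB4.2 lay between 14.7 and 15.2 in all 6 plants, and PYK10, a root marker, was at the lowest value of the table in all of them. RCA had means of 15.04 outside and 14.83 in low, and LHCB4.2 of 15.22 and 15.07, both without overlap (exact permutation p = 0.1). The plants overlapped for LHCB4.1 (exact permutation p = 0.9). FMA, a guard cell factor, had means of 6.25 ± 0.46 outside and 5.45 ± 0.50 in low (SD, n = 3; exact two-sided permutation p = 0.2). The difference of 3' and 5' control signals, which grows as RNA degrades, was 0.0965 outside and -0.0732 in low for GAPDH (exact permutation p = 0.1, the smallest that 3 against 3 plants can give). For ubiquitin it was -0.399 outside and -0.296 in low, also without overlap (exact permutation p = 0.1), and for actin the plants overlapped (exact permutation p = 0.3). The part of these differences in the results was not tested.

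Of the 22746 probe sets, 1775 were called (7.8%), with 917 higher in low (4.03%) and 858 lower (3.77%). A change of at least 2-fold was found for 479 of the higher (2.11% of all probe sets) and 379 of the lower ones (1.67%). The rises reached further than the falls: 69 probe sets rose by at least log2 3 and 25 fell by at least as much. The median change was 1.03 among the higher and -0.92 among the lower calls. At an unadjusted p under 0.05 there were 4767 probe sets, and in 5899 (25.9%) the plants of both groups did not overlap. The annotation supplied pairs 929 of the called probe sets with a single gene, of which 141 have a symbol (65 higher, 76 lower), so most called probe sets cannot be described by function here. Without low plant 3 the calls fell to 820, without low plant 2 to 868, without outside plant 3 to 971 and without outside plant 1 to 1147. In every fit with a plant left out, 678 probe sets were called, 400 of them higher and 278 lower.

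**Figure D1:**
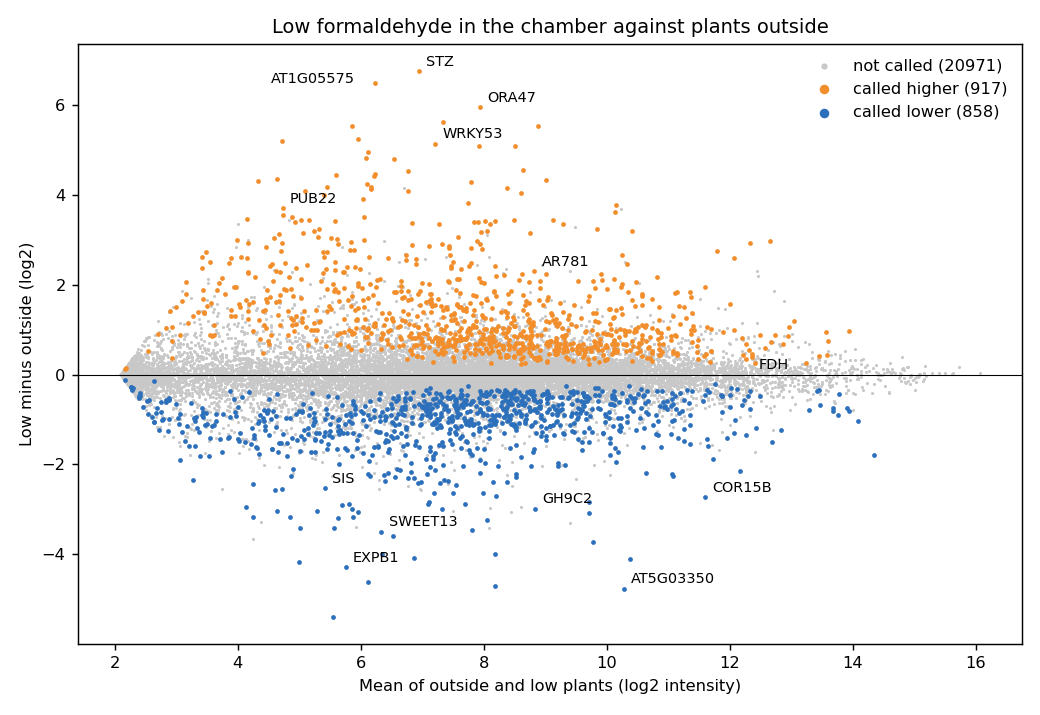
Change in low minus outside (log2, vertical) against the mean log2 intensity of the 6 plants (horizontal), a point per probe set, with the 917 called higher in orange, the 858 called lower in blue and the rest in grey. The largest rises, up to 6.74 for STZ, lie above the largest falls in size, and FDH lies at 0.

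Early stress and immune regulators rose together. Of 8 measured members of a list of rapid stress and immune signalling genes, 7 were called higher and 0 lower, with a median change of 3.84, beside 4.03% of all probe sets called higher and a median of -0.03 over the 14661 probe sets above the lowest values. The list was drawn up with earlier results of these plants known, so its count is a description. STZ (AT1G27730, also ZAT10) encodes a zinc finger repressor induced by salt, cold and oxidative stress. It read 4.01, 2.70 and 4.03 in the outside plants and 10.18, 10.22 and 10.57 in the low plants. The groups lay far apart, and the change of 6.74 (95% interval 5.52 to 7.96, adjusted p = 3.35e-04), a 107-fold rise, was the largest of all probe sets. ORA47 (AT1G74930), an AP2/ERF factor that activates jasmonate synthesis genes, read 4.95, 4.84 and 5.14 outside and 10.33, 11.15 and 11.27 in low. It rose by 5.94 (95% interval 4.90 to 6.98, adjusted p = 2.77e-04), or 61.5-fold, with each group held within a narrow band.

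WRKY53 (AT4G23810), a regulator of defence and leaf senescence, read 5.24, 4.3 and 4.40 outside and 9.59, 9.36 and 10.37 in low, a rise of 5.13 (adjusted p = 3.23e-04). WRKY22 (AT4G01250), which acts in the response to bacterial flagellin, read 3.00, 3.61 and 3.61 outside and 7.16, 7.32 and 7.69 in low, a rise of 3.98 (adjusted p = 0.00534). The plants of the groups overlapped in neither, which the rule for naming both required and which held for 25.9% of all probe sets. Of the 7 measured WRKY genes with a symbol, 4 were called higher and 0 lower (57.1%, beside 7.8% of all probe sets). WRKY47 (AT4G01720) rose by 1.73 (adjusted p = 0.00210) and WRKY6 (AT1G62300), a factor of senescence and defence, by 1.23 (adjusted p = 0.0470). The call of WRKY6 was lost in each of the 12 fits with a plant left out, at most to an adjusted p of 0.149 without low plant 3.

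PUB22, PUB23 and PUB24 are U-box ubiquitin ligases that damp immune signalling in Arabidopsis. PUB22 (AT3G52450) read 3.04, 2.89 and 2.73 outside and 6.08, 6.63 and 7.03 in low, a rise of 3.70 (adjusted p = 5.29e-04). PUB23 rose by 2.30 (adjusted p = 0.0356), and PUB24 differed by 0.88 without passing the test (adjusted p = 0.116). PUB26 (AT1G49780), a related ligase, rose by 1.57 (adjusted p = 0.0365). Of 12 U-box and RING ligases with a symbol 3 were thus called higher and 0 lower (25.0%, beside 7.8% of all probe sets). The calls of PUB23 and PUB26 were lost in 8 of 12 fits each, with adjusted p of 0.127 and 0.128 without low plant 3.

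Genes known here only by locus were among the largest rises. AT1G05575 read 3.59, 2.72 and 2.68 outside and 9.22, 9.28 and 9.96 in low, a rise of 6.49 (adjusted p = 3.18e-05). AT3G10930 was at 2.11 to 2.14 in the outside plants, next to the lowest value of the table, and at 6.90, 7.50 and 7.55 in low. Its rise was at least 26.1-fold, counted from 0.5 above that lowest value (adjusted p = 3.76e-05). AT2G25735 read 5.86, 5.07 and 5.20 outside and 10.31, 10.40 and 10.69 in low, a rise of 5.09 (adjusted p = 4.91e-05). These 3 were named under a rule that required groups without overlap, which 25.9% of all probe sets had. AT2G41990 rose by 5.23 (adjusted p = 0.0242), a call lost in 6 of 12 fits, with an adjusted p of 0.0840 without low plant 3. AR781 (AT2G26530) had one of the smallest adjusted p-values, with 7.47, 7.86 and 7.71 outside and 9.70, 10.05 and 10.16 in low, a rise of 2.29 (adjusted p = 1.78e-04). ZCF37 (AT1G59590) rose by 2.42 (adjusted p = 0.00436).

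**Figure D2:**
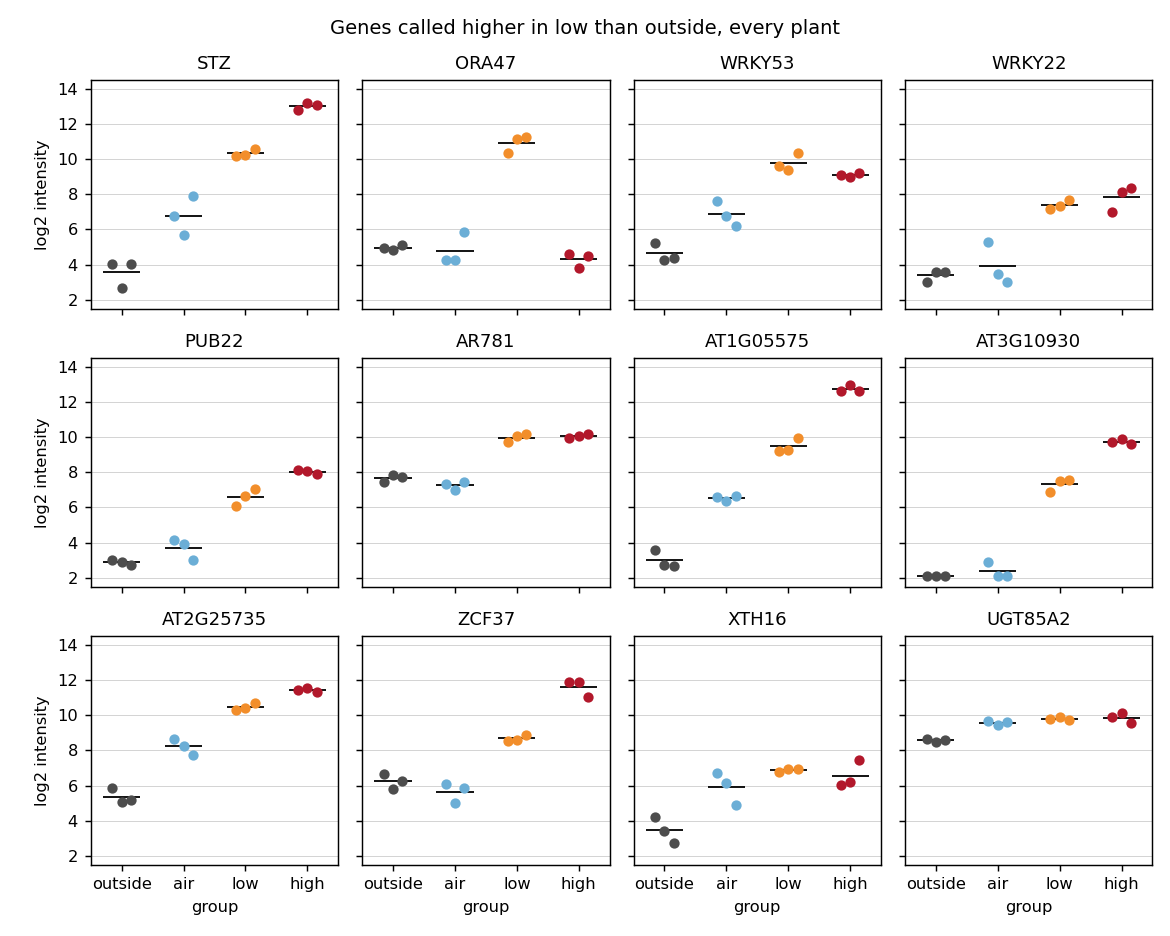
Log2 intensity (vertical) of 12 genes called higher in low than outside, a point per plant and a bar at the mean of the 3 plants, for the groups outside, air, low and high. ORA47 stands between 10.33 and 11.27 in low alone, STZ climbs from outside over air and low to high, and the air plants of UGT85A2 lie between those of outside and low.

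Single genes of the wall, of growth and of calcium sensing were also called higher. XTH16 (AT3G23730), an enzyme that cuts and rejoins wall xyloglucan, read 4.23, 3.39 and 2.74 outside and 6.78, 6.94 and 6.91 in low, a rise of 3.42 (adjusted p = 0.00849). ARL (AT2G44080), an ARGOS-like protein of organ growth, rose by 3.40 (adjusted p = 0.00906). ChiC (AT4G19810), a class V chitinase, was at 2.44 to 2.54 outside and 5.01 to 5.94 in low, a rise of at least 7.35-fold (adjusted p = 0.00141). CML42 (AT4G20780), a calmodulin-like calcium sensor, read 6.70, 6.92 and 6.73 outside and 8.47, 8.06 and 8.54 in low, and rose by 1.57 (adjusted p = 0.00545). Of 9 measured calmodulin-like genes only CML42 was called (11.1%, near the 7.8% of all probe sets), and 6 lay above the lowest values. In the list of touch genes 0 of 4 passed, with CML38 at 1.48 (adjusted p = 0.0575) and CML23 at 1.69 (adjusted p = 0.0615), and 2 members lay at the lowest values in both groups. EXO (AT4G08950), an extracellular growth protein that answers brassinosteroid and low carbon, rose by 3.81 (adjusted p = 0.0250). BZIP53 (AT3G62420), which switches on amino acid breakdown under low energy, rose by 0.88 (adjusted p = 0.0245). They were the 2 called members of 6 in the sugar starvation list (33.3%, beside 7.8% of all probe sets), whose median was 0.82. The call of EXO was lost in 6 fits (adjusted p = 0.0851 without outside plant 3) and that of BZIP53 in 5 (0.0730 without low plant 2).

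Expansins were among the genes called lower. Of the 19 measured expansins 4 were called lower and 0 higher (21.1%, beside 7.8% of all probe sets), and 10 lay above the lowest values. Of 9 xyloglucan endotransglucosylases 1 was called higher and 0 lower (11.1%, near the share of all probe sets), and 4 lay above the lowest values. In a list drawn from both, of 13 measured expansins and xyloglucan enzymes, 4 were called lower, all of them expansins, and 1 higher, which was XTH16. The list median was -0.11, or -1.19 over the 11 members above the lowest values. EXPB1 (AT2G20750) read 8.08, 8.22 and 7.39 outside and 3.14, 3.85 and 3.85 in low, a fall of 4.29 or 19.5-fold (log2 change -4.29, 95% interval -5.19 to -3.39, adjusted p = 6.72e-04). EXPA15 (AT2G03090) read 6.25, 5.99 and 6.61 outside and 4.66, 5.08 and 5.37 in low, a change of -1.25 (adjusted p = 0.00853). The groups stood apart in both, as in 25.9% of all probe sets, and for EXPB1 the naming rule required it. EXPB3 (AT4G28250) changed by -2.39 (adjusted p = 0.0298) and EXPA4 (AT2G39700) by -1.19 (adjusted p = 0.0195). Not all expansin-like genes followed: EXLA1 differed by 3.29 without passing the test (adjusted p = 0.104), and EXPA8 by -1.57 (adjusted p = 0.138). GH9C2 (AT1G64390), a cellulase of the wall, read 10.05, 10.78 and 10.15 outside and 6.31, 7.80 and 7.92 in low, a change of -2.98 (adjusted p = 0.0346). Leaving out a plant ended the call of EXPB3 in 6 fits (adjusted p = 0.0889 without outside plant 1), of EXPA4 in 4 (0.0735 without low plant 2) and of GH9C2 in 7 (0.0983 without outside plant 2).

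COR15A and COR15B fell. These cold-regulated genes encode small stroma proteins that protect membranes during freezing. COR15B (AT2G42530) read 12.79, 13.09 and 13.01 outside and 10.18, 10.00 and 10.52 in low, a change of -2.73 (adjusted p = 0.00107). COR15A (AT2G42540) read 13.37, 13.29 and 13.65 outside and 12.36, 11.57 and 11.85 in low, a change of -1.51 (adjusted p = 0.0218). The 2 genes share much of their sequence, so their probe sets may share signal. They were the only called members among 7 measured cold, drought and abscisic acid genes (28.6%, beside 7.8% of all probe sets). All 7 had an unadjusted p under 0.05 by limma. LTI30 and COR47, dehydrins, differed by -1.19 (adjusted p = 0.0575) and -0.96 (adjusted p = 0.111), and HIS1-3, a drought-induced linker histone, by -2.04 (adjusted p = 0.237). COR27, a cold- and clock-regulated gene, differed by 0.80 in the other direction (adjusted p = 0.155), and so did AT4G33980, by 1.00 (adjusted p = 0.117). The call of COR15A was lost in 4 fits, with an adjusted p of 0.0815 without low plant 2. SIS (AT5G02020), a salt-induced serine-rich protein, had the smallest adjusted p among the falling genes with a symbol. It read 7.01, 6.45 and 6.59 outside and 4.04, 4.1 and 4.34 in low, a change of -2.53 (adjusted p = 1.13e-04).

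**Figure D3:**
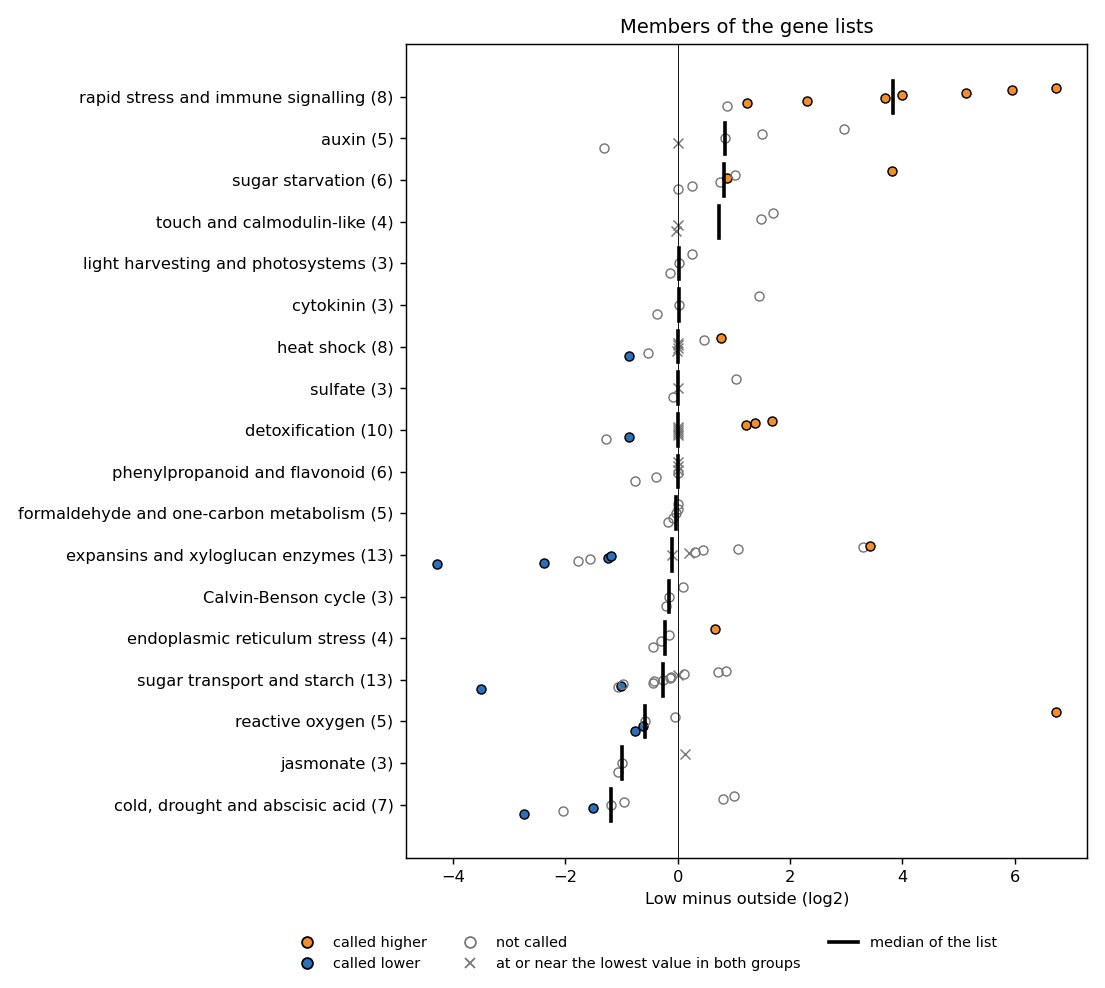
Change in low minus outside (log2, horizontal) of each measured member of the gene lists with at least 3 measured members, with the number measured after each name, filled points for called members, crosses for members near the lowest value in both groups and a bar at the list median. In the rapid stress and immune list 7 of 8 members are called higher, and in the one-carbon list all 5 lie within 0.18 of 0.

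Among sugar genes, SWEET13 (AT5G50800), a sucrose exporter for phloem loading, read 7.98, 7.99 and 8.29 outside and 5.08, 4.31 and 4.37 in low, a change of -3.50 (adjusted p = 0.0292). SWEET4 (AT3G28007), another sugar carrier, was 2.01-fold lower (adjusted p = 0.0286). SWEET11, the partner of SWEET12 in phloem loading, differed by 0.87 in the other direction without passing (adjusted p = 0.0814). SWEET13 and SWEET4 were the called ones of 13 genes of sugar transport and starch (15.4%, beside 7.8% of all probe sets). The list median was -0.26. Leaving out a plant ended the call of SWEET13 in 6 of 12 fits and of SWEET4 in 5. Without low plant 2 the adjusted p was 0.0983 for SWEET13 and 0.0898 for SWEET4. Over the 12 fits the change stayed between -3.75 and -3.36 for SWEET13 and between -1.15 and -0.85 for SWEET4. Both calls were also lost without the high group (adjusted p = 0.0711 and 0.0706), and both held on the 6 arrays alone (0.00695 and 0.0457).

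Other genes of known function fell. MSRB6 (AT4G04840), a methionine sulfoxide reductase that repairs oxidised proteins, read 11.28, 10.58 and 11.25 outside and 9.06, 9.49 and 9.40 in low, a change of -1.72 (adjusted p = 0.00657). BIM1 (AT5G08130), a bHLH partner in brassinosteroid signalling, read 9.40, 9.84 and 9.77 outside and 7.71, 8.25 and 7.86 in low, a change of -1.73 (adjusted p = 7.60e-04). TET3 (AT3G45600), a membrane tetraspanin, changed by -1.69 (adjusted p = 0.00336), and MEF8S (AT4G32450), named for its likeness to the RNA editing factor MEF8, by -1.19 (adjusted p = 7.57e-04). The groups overlapped in none of the 4, as in 25.9% of all probe sets, and for MSRB6, BIM1 and TET3 the naming rule required it. AFR (AT2G24540), an F-box protein of phytochrome A signalling, changed by -2.22 (adjusted p = 0.0449). BCAT4 (AT3G19710), the aminotransferase that opens methionine-derived glucosinolate synthesis, changed by -2.20 (adjusted p = 0.0454), and ZW9 (AT1G58270) by -3.24 (adjusted p = 0.0243). Without low plant 2 the adjusted p was 0.149 for AFR and 0.153 for BCAT4, and without low plant 3 it was 0.0818 for ZW9. Among genes with a locus alone, AT5G03350 changed by -4.76 (adjusted p = 0.00491) and AT1G19960 by -4.10 (adjusted p = 0.00306). AT5G03350 read 13.06, 12.84 and 12.07 outside and 7.43, 8.45 and 7.82 in low, a gap of over 3 log2 units between the nearest plants. AT1G77960 changed by -4.16 (adjusted p = 0.0215, and 0.0784 without low plant 2) and AT1G52000 by -3.99 (adjusted p = 0.0475, and 0.154 without low plant 2).

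**Figure D4:**
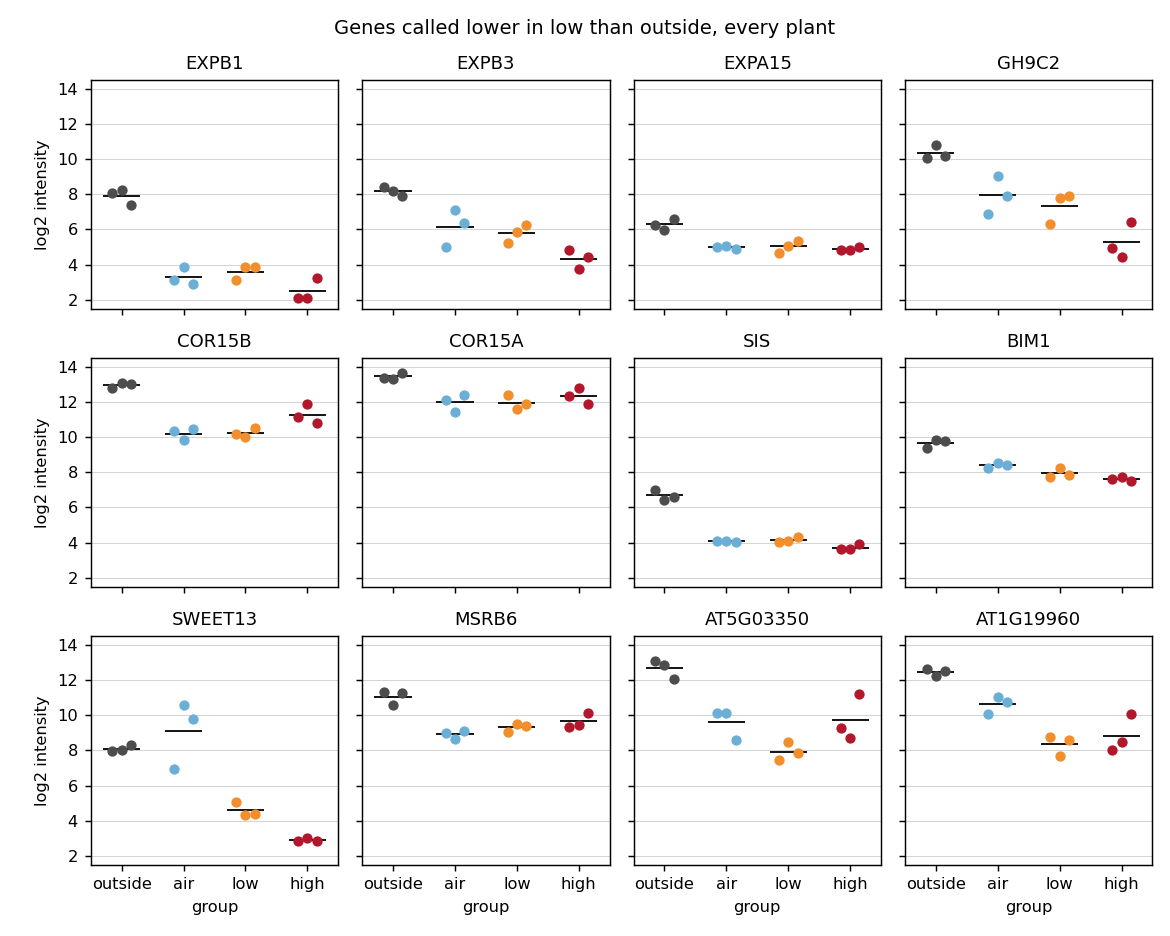
Log2 intensity (vertical) of 12 genes called lower in low than outside, a point per plant and a bar at the mean of the 3 plants, for the groups outside, air, low and high. In every gene shown but SWEET13 the air plants lie below every outside plant. The air plants of SWEET13 lie between 6.91 and 10.57 and reach above the outside plants.

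The detoxification list held calls in both directions. UGT73B1 (AT4G34138), a glycosyltransferase, read 6.22, 6.83 and 6.22 outside and 8.08, 7.82 and 8.42 in low, a rise of 1.68 (adjusted p = 0.00515). UGT73B5 (AT2G15480), a glycosyltransferase of pathogen and redox responses, rose by 1.37 (adjusted p = 0.0199). AER (AT5G16970), an alkenal reductase that removes reactive carbonyls, rose by 1.22 (adjusted p = 0.0192). ALDH7B4 (AT1G54100), a stress-induced aldehyde dehydrogenase, changed by -0.88 (adjusted p = 0.0271). The list had 3 of 10 members higher and 1 lower (40.0%, beside 7.8% of all probe sets), and 5 near the lowest value in both groups. Over all 51 measured glycosyltransferases 4 were called higher and 2 lower (11.8%, beside 7.8% of all probe sets). Of the 51, 26 lay above the lowest values. UGT85A2 (AT1G22360) had the smallest adjusted p of the 6, at 8.62, 8.48 and 8.59 outside and 9.80, 9.90 and 9.71 in low, a rise of 1.24 (adjusted p = 9.34e-04), and UGT85A4 (AT1G78270) rose by 0.98 (adjusted p = 0.0123). Of 13 glutathione transferases, 8 of them above the lowest values, 0 were higher and 2 lower (15.4%, beside 7.8% of all probe sets). These were GSTU26 (AT1G17190) at -1.42 (adjusted p = 0.0327) and GSTU18 (AT1G10360) at -0.92 (adjusted p = 0.0376). GSTU26 read 3.14 in all 3 low plants (SD 0.0009) and had a mean of 3.14 in high, so its fall may be a lower bound. Of 24 cytochromes P450, 13 of them above the lowest values, only 2 were called (8.33%, near the 7.8% of all probe sets). CYP71B22 (AT3G26200) rose by 3.51 (adjusted p = 0.0372) and CYP71B35 (AT3G26310) changed by -1.11 (adjusted p = 0.0322). Glutathione reductase was lower in both its forms: GR1 (AT3G24170), the cytosolic enzyme, by -0.77 (adjusted p = 0.0239), and GR (AT3G54660), the organelle enzyme, by -0.61 (adjusted p = 0.0123). With STZ, called higher, they were the 3 called members of 5 in the reactive oxygen list (60.0%, beside 7.8% of all probe sets). Of the genes in this group, UGT73B1, UGT85A2, UGT85A4 and GR were called in each of the 12 fits with a plant left out. Without low plant 3 the adjusted p was 0.0671 for AER, 0.0710 for UGT73B5, 0.132 for CYP71B22 and 0.114 for CYP71B35. Without low plant 2 it was 0.0930 for ALDH7B4, 0.0890 for GR1 and 0.130 for GSTU18, and without outside plant 1 it was 0.0990 for GSTU26.

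Of 24 listed genes of formaldehyde and one-carbon metabolism 5 were measured and 0 were called, beside 7.8% of all probe sets. So few genes cannot show that the pathway was unchanged. FDH (AT5G14780), the mitochondrial formate dehydrogenase that oxidises formate, read 12.13, 12.37 and 12.58 outside and 12.63, 12.22 and 12.21 in low. The plants overlapped, and the difference was 0.00 (95% interval -0.63 to 0.62, adjusted p = 1). The other 4 measured members of the list differed by -0.18 to 0.00, and 0 of the 5 had an unadjusted p under 0.05 by limma. The same held for 3 genes of the Calvin-Benson cycle, 3 of light harvesting and 2 of photorespiration, whose list medians were -0.16, 0.02 and 0.02. Of 69 plastid-encoded probe sets 0 were called and 2 had an unadjusted p under 0.05, with differences from -0.57 to 1.07.

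In the heat shock list, proteins that hold or refold damaged proteins, 1 of 8 measured members was called higher and 1 lower (25.0%, beside 7.8% of all probe sets), both with changes of under 2-fold. Of the 8 members 4 did not rise above the lowest values in either group. Fes1A (AT3G09350), a partner of HSP70, rose by 0.76 (adjusted p = 0.0230), and AT2G29500 changed by -0.87 (adjusted p = 0.0349). Without low plant 3 the adjusted p of Fes1A was 0.0821, and without outside plant 3 that of AT2G29500 was 0.103. BZIP60 (AT1G42990), a factor of the response to unfolded proteins in the endoplasmic reticulum, rose by 0.67 (adjusted p = 0.0384, and 0.135 without low plant 3). Of 4 measured genes of that response BZIP60 alone was called (25.0%, beside 7.8% of all probe sets). No member passed in the lists for jasmonate (3 measured), the circadian clock (2), flavonoids (6), auxin (5), cytokinin (3), sulfate (3), ethylene (1), salicylate (2) and low oxygen (1), by limma, nor did any of 9 peroxidases and 4 pectin enzymes. In each of the jasmonate, auxin, cytokinin and sulfate lists at least 1 member had an unadjusted p under 0.05, and the jasmonate factors MYC3 and MYC4 differed by -0.99 (adjusted p = 0.0774) and -1.07 (adjusted p = 0.141).

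The chamber air plants give values from the same kind of chamber without added formaldehyde. The difference of low and outside is the sum of air minus outside and low minus air, so the 3 values are not independent. Over all probe sets 5.6% were called in air minus outside and 1.24% in low minus air, against 33.8% in high minus low. The air plants varied more than the others (median SD 0.216). In air plant 3 the root marker PYK10 read 6.17, against the lowest value, 2.11, in every other plant of the series. The part of this in the air values was not tested.

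For some genes low minus air passed and air minus outside did not. ORA47 read 4.24, 4.24 and 5.88 in air, with a change of -0.18 against outside (adjusted p = 1) and of 6.13 from air to low (adjusted p = 6.11e-04). At 14 to 16 ppm it was back at 4.62, 3.82 and 4.48, a change of -6.61 from low to high (adjusted p = 8.79e-06). PUB26 also differed from low to high by -2.15 (adjusted p = 0.00178), though its change of 1.45 from air to low did not pass (adjusted p = 0.0958). AT3G10930 read 2.92, 2.11 and 2.11 in air, and low exceeded air by 4.94 (adjusted p = 2.83e-04). AR781 read 7.33, 7.00 and 7.47 in air, with none above the highest outside plant, and low exceeded air by 2.70 (adjusted p = 3.50e-04). PUB22, WRKY22, ZCF37 and UGT73B1 had changes from air to low of 2.88 (adjusted p = 0.00637), 3.46 (adjusted p = 0.0324), 3.02 (adjusted p = 0.00601) and 1.90 (adjusted p = 0.0114). In these 4 air minus outside was 0.81, 0.52, -0.60 and -0.21 and did not pass (adjusted p from 0.203 to 0.792), which does not show that air and outside were alike. In PUB22, 2 of the 3 air plants lay above every outside plant.

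Other genes stood between, with both steps called. STZ read 6.74, 5.69 and 7.91 in air, 3.20 above outside (adjusted p = 0.0136) and 3.54 below low (adjusted p = 0.0249), and reached 12.75 to 13.16 in high. AT1G05575 read 6.57, 6.39 and 6.65 in air, with steps of 3.54 (adjusted p = 6.43e-04) and 2.95 (adjusted p = 0.00228). AT2G25735 had steps of 2.84 (adjusted p = 0.00153) and 2.25 (adjusted p = 0.00713). WRKY53 had steps of 2.22 (adjusted p = 0.0187) and 2.90 (adjusted p = 0.0175), and its difference of -0.68 from low to high did not pass (adjusted p = 0.275).

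For another set air minus outside passed and low minus air did not. COR15B read 10.32, 9.81 and 10.46 in air, -2.77 against outside (adjusted p = 0.00213), with low minus air at 0.03. SIS read 4.1, 4.09 and 4.05 in air, -2.61 against outside (adjusted p = 1.90e-04), with low minus air at 0.08. EXPB1 read 3.16, 3.87 and 2.93 in air, -4.58 against outside (adjusted p = 0.00117), with low minus air at 0.30. EXPA15, MSRB6, BIM1 and TET3 were also lower in air than outside, by -1.29 (adjusted p = 0.0110), -2.13 (adjusted p = 0.00417), -1.27 (adjusted p = 0.00522) and -1.04 (adjusted p = 0.0305). WRKY47, UGT85A2, UGT85A4, UGT73B5, ChiC and XTH16 were higher in air than outside, by 2.06, 1.01, 1.02, 1.64, 1.83 and 2.45 (adjusted p from 0.00195 to 0.0396). In these 13 genes low minus air ran from -0.64 to 1.16, with adjusted p of 0.115 or more, which does not show that air and low were alike. In ChiC, XTH16, TET3 and UGT85A2 the air plants lay between those of outside and low, without overlap with either.

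In SWEET13, MEF8S and AT1G52000, all lower in low than outside, every low plant lay below every air plant. Other falling genes shared this, among them AT5G03350, AT1G19960, AT1G77960, TET3 and CYP71B35. In AT5G03350 air was -3.06 against outside (adjusted p = 0.0367), and low minus air, at -1.70, did not pass (adjusted p = 0.231). SWEET13 read 6.91, 10.57 and 9.80 in air, 1.01 above outside without passing (adjusted p = 0.558), and low was below air by -4.51 (adjusted p = 0.0339). MEF8S read 4.47, 4.65 and 4.47 in air, below every outside plant, and low differed from air by -0.89 (adjusted p = 0.0108). AT1G52000 read 8.74, 11.49 and 12.60 in air, and low minus air, at -4.75, did not pass (adjusted p = 0.0639).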

How the data were processed

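Leaf RNA of 12 plants was hybridised to Affymetrix ATH1 arrays, and the 3 low and 3 outside plants were compared. The authors deposited log2 values made with GCRMA, per the submitters' processing notes; its version is not given in the sources used here. Medians of the 12 arrays ran from 5.68 to 5.82, and 26.6% to 28.0% of an array's probe sets shared the lowest value, 2.11. Values were used as deposited and without a filter. The number of arrays limits the precision.

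A linear model with 1 mean per group was fitted to all 12 arrays (8 residual degrees of freedom) with limma 3.58.1 in R 4.3.3, with a trend of the variance on the mean. Tests were two-sided, and p-values were adjusted by Benjamini-Hochberg over the 22746 probe sets that are not controls. On simulated data the fit called 53 of 100 changes of log2 1 and 91 of 100 of log2 2. It also called 12 unchanged probe sets. Every adjusted p is from limma. Python 3.11.15, pandas 2.3.3, scipy 1.17.1 and matplotlib 3.10.9 did the rest. Where a group lies within 0.5 of the lowest value, a fold is a lower bound.

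In the annotation 13513 of them have 1 gene, 503 name more and 8730 have no gene; 13436 of the first were in the RefSeq table (TAIR10.1, names only), 1580 with a symbol. Of 568 genes on 34 lists, 118 were measured, and 8 lists had none (gibberellin and brassinosteroid, senescence, nitrogen, aquaporins, epidermis, phloem, xylem, inflorescence). Families were taken by phrases in the gene names; the phrases for AP2 and aquaporins were narrowed after clone names had matched. The comparison and all lists were chosen with earlier results of these data known. Named were, per direction, the 12 largest changes with a symbol and 4 with a locus alone (called, at least 2-fold, groups apart), the 5 smallest adjusted p with a symbol, up to 4 called members per list and 3 per family, and FDH; other list members, WRKY6 among them, are given to complete a count. A planned search of promoters for motifs was not made. Alternatives were other arrays in the fit, normalizations, filters, variance models, array weights, thresholds, a replicate block and each plant left out.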

Additional observations from a re-analysis of the deposited data

How the results depend on the processing

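The 1775 calls became 2897 with array weights, 858 with a change of at least 2-fold, 583 at an adjusted p under 0.01, and 820 to 2273 with single plants left out. They stayed within 1.5 times under the other alternatives: 1799 on the 6 arrays alone (1181 of them among the 1775), 2276 without air, 1354 without high, 1985 with median-centred arrays, 1779 after quantile normalization, 2537 and 2336 without dim probe sets, 1682 without a mean trend and 1612 with robust moderation. Of the 56 named genes that were called, 29 were called in every fit with a plant left out; 0 of the 56 turned in direction under any alternative. Without the high group 16 lost their call, on the 6 arrays alone 8, and with the replicate number as a block 12. That block gave 1396 calls (741 higher, 655 lower), but same-numbered plants did not deviate together (r = -0.035, 0.072 and -0.107) and 0 of 6 plants correlated best with its own number, so the numbers were not taken as a pairing.

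List counts, recomputed under each alternative after the data had been seen, ran from 5 to 8 for rapid stress and immune genes called higher (7 reported), 3 to 4 for WRKY genes (4), 1 to 4 for ubiquitin ligases (3), 1 to 3 for detoxification (3) and 3 to 7 for glycosyltransferases (4). For genes called lower they ran from 2 to 4 for expansins (4), 1 to 4 for cold genes (2), 1 to 3 for reactive oxygen (2) and 0 to 3 for sugar transport and starch (2). The lowest of these counts came from fits with a plant or the high group left out, the 6 arrays alone or the block, and for WRKY genes also from the fit without air, variance models and a filter. With 3 plants a group, a change of about 2-fold was called or missed depending on the spread between plants. Smaller changes were called too, with a median of -0.92 among the lower calls.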

Other observations

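Further called genes with a symbol were chosen after their values had been seen. They are single genes and stand for no group. BIK1, a kinase that relays signals from immune receptors, read 6.80, 6.75 and 6.56 outside and 8.32, 8.45 and 8.79 in low, a rise of 1.82 (limma adjusted p = 0.00105), and was called in each of the 12 fits with a plant left out. SRC2, a membrane protein that binds calcium signalling partners, rose by 0.99 (adjusted p = 0.00257). THE1, a receptor kinase that senses cell wall integrity, rose by 1.64 (adjusted p = 0.0433, and 0.123 without outside plant 2). RALFL33, a peptide signal of the RALF family, rose by 0.99 (adjusted p = 0.0181, and 0.0595 without outside plant 1). TET8, a tetraspanin of exosome-like vesicles, read 9.43, 9.04 and 9.51 outside and 10.81, 10.76 and 10.79 in low, a rise of 1.46 (adjusted p = 0.00512), while TET3 changed by -1.69.

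MSRB5 rose by 1.55 (adjusted p = 0.0149, and 0.0599 without low plant 3) where its relative MSRB6 changed by -1.72. In purine breakdown ALN, allantoinase, rose by 1.36 (adjusted p = 0.0169), and AAH, allantoate amidohydrolase of the next step, changed by -0.85 (adjusted p = 0.0342). Without low plant 3 these were 0.0630 and 0.106. ATG8E, a protein of autophagosome membranes, rose by 1.43 (adjusted p = 0.0220, and 0.0727 without low plant 2). BGLU44 and BGLU40, beta-glucosidases, changed by -1.42 (adjusted p = 0.00849) and -1.41 (adjusted p = 0.0113). NRPA2, the second largest subunit of RNA polymerase I, rose by 1.01 (adjusted p = 0.0126). EX1, which relays singlet oxygen signals from the chloroplast, changed by -0.68 (adjusted p = 0.00754).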
